A study of Mus musculus with 53 samples.

Results

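The cerebellum of mice carrying an expanded human ATXN3 gene was compared with the cerebellum of wild-type (WT) mice by RNA sequencing. The comparison used every library labelled cerebellum, 13 of the 53 libraries of the series, 7 from WT and 6 from SCA3 mice, with 1 library per mouse. The remaining libraries came from brainstem (14), cortex (13) and striatum (13) of 14 mice in all, among them the 13 used here. SCA3 mice were hemizygous MJD84.2 transgenics, which carry human ATXN3 as a whole gene, its CAG repeat lengthened, under its own promoter, so that it is expressed in all tissues, and which keep their own mouse Atxn3 gene. WT mice had no transgene. All mice of both groups were untreated C57BL/6 males of 74 to 77 weeks that had earlier gone through beamwalk and rotarod tests, in which SCA3 mice showed no ataxic phenotype. A library is named here by genotype and mouse number.

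Spinocerebellar ataxia type 3 is a dominant ataxia caused by the lengthened glutamine tract of ataxin-3, a deubiquitinating enzyme. The cerebellar cortex is built from Purkinje cells, which are its only output neurons, from very many small granule cells, from inhibitory interneurons and from Bergmann glia and other astrocytes, while oligodendrocytes myelinate the axons of its white matter. In the human disease the deep cerebellar nuclei, pons and brainstem are affected strongly and the Purkinje cells less than in several other ataxias.

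The libraries carried the genes of cerebellum, by these marker lists. Of 17 Purkinje cell markers measured, 15 were higher in WT cerebellum than in any other WT region, as were 16 of 18 granule cell markers. Cbln3 of granule cells had a WT mean of 1263 CPM (counts per 1 M counts of the library) in cerebellum and at most 7.4 CPM elsewhere, and Car8 of Purkinje cells 1615 CPM against at most 27.2 CPM. The markers Pcp2, Ppp1r17, Skor2, Gabra6 and Fat2 were not analysed here.

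Within genotypes the libraries were not alike. Library totals ran from 34.6 to 69.4 M counts, and the first principal component held 57.3% of the variance. It was led by 20 genes such as Dgkk, Gabrq, Chat, Slc5a7 and Sst, and all 20 had a lower WT mean in cerebellum than in each of the other 3 regions. Their summed level was 200 to 288 CPM in WT mice 7267055, 9082857, 9083372 and 9083373 and 8.05 to 34.6 CPM in the other 3 WT mice. In SCA3 mice it was 98.8 to 235 CPM in 7267054, 9082853 and 9083515 and 8.98 to 19.8 CPM in the other 3. Both genotypes thus held libraries of both kinds, and the summed levels overlapped. The 4 choroid plexus markers measured (of 10) also varied, from 152 to 3431 CPM in summed level in WT and from 1167 to 3147 CPM in SCA3 mice. Transthyretin (Ttr) itself ran from 1.79 to 2071 CPM in WT and from 636 to 1943 CPM in SCA3 mice, so that 5 of 7 WT libraries lay below every SCA3 library. WT mice 7267055 and 7267059, which had the shallowest libraries, were among those low in choroid plexus genes.

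**Figure D1:**
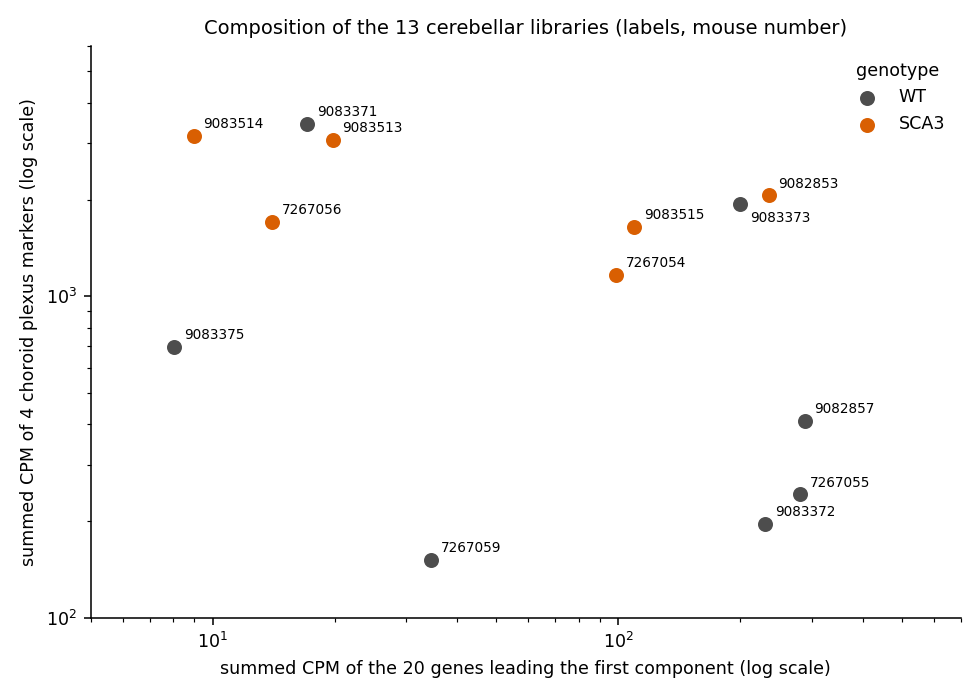
Each point is 1 cerebellar library, grey for WT and orange for SCA3. The horizontal axis gives the summed CPM of the 20 genes leading the first principal component and the vertical axis the summed CPM of 4 choroid plexus markers, both on log scales. Libraries of both genotypes lie on the left (8.05 to 34.6 CPM) and on the right (98.8 to 288 CPM), while the 4 lowest choroid plexus sums, 152 to 410 CPM, are all WT.

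Bodyweight was lower in the SCA3 mice that gave cerebellum, with 31.0 ± 2.55 g (SD, n = 6) against 43.9 ± 5.86 g (n = 7), a difference of -12.8 g (SCA3 minus WT). An exact permutation test, two-sided over 1716 arrangements, gave p = 0.00117 (0.00466 after Benjamini-Hochberg adjustment over 4 sample measures). RNA integrity (RIN) was between 7.5 and 8.2 and differed by -0.0595 from WT to SCA3 (exact two-sided permutation p = 0.738). Age differed by -0.452 weeks (exact p = 0.538) and library totals by 8.40 M counts (exact p = 0.115). Leaving out WT mouse 9082857 raised the difference in totals to 11.7 M counts (exact p = 0.00216), and leaving out SCA3 mouse 9082853 moved the age difference to -0.886 weeks (exact p = 0.0354).

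To find which genes the transgene altered in cerebellum, SCA3 was compared with WT in the 13 cerebellar libraries alone. Of 12372 genes, 21 were differentially expressed at a false discovery rate (FDR) below 0.05 in edgeR's likelihood ratio test, which is 0.17% of all genes. Of these, 11 were higher in SCA3 (0.0889%) and 10 lower (0.0808%). At an unadjusted p below 0.05 there were 444 genes (3.59%), 224 higher and 220 lower. The median log2 fold change over all genes was 0.00 and the median absolute value 0.04, and 12 of the 21 genes changed by more than 0.5 on the log2 scale. Bulk tissue was measured, so fewer cells of a type and less RNA per cell cannot be told apart in any of these differences.

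**Figure D2:**
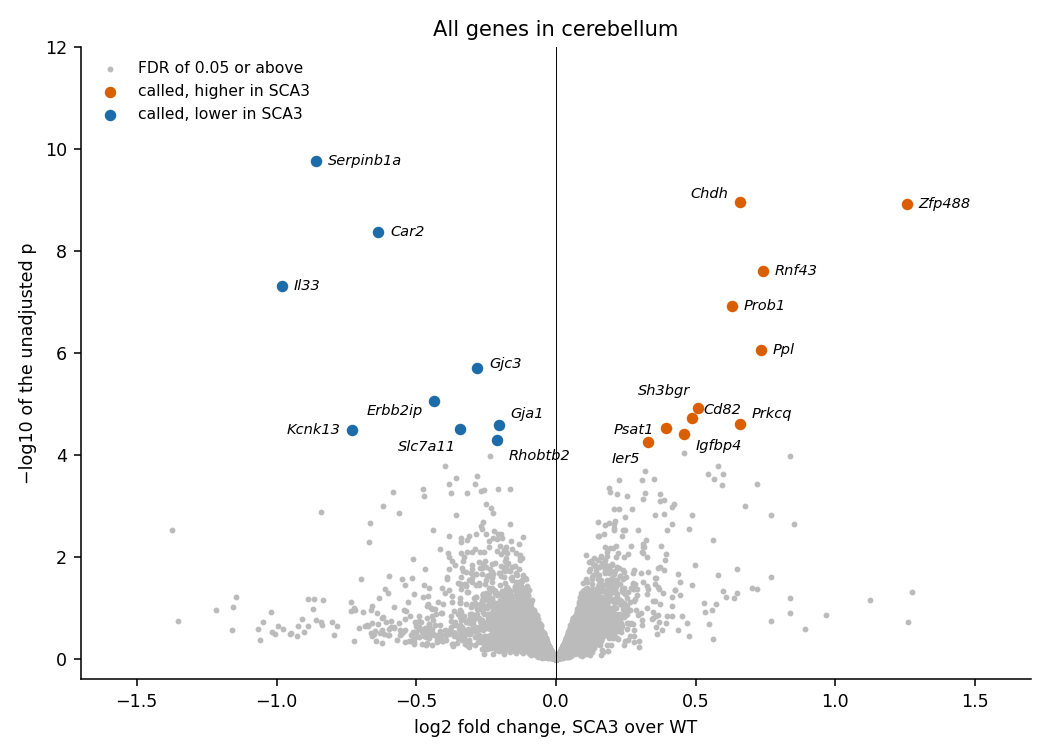
Each point is 1 of the 12372 genes tested. The horizontal axis is the log2 fold change of SCA3 over WT in cerebellum, the vertical axis the negative log10 of the unadjusted p of edgeR's likelihood ratio test. The 11 genes called higher (orange) and 9 of the 10 called lower (blue) are drawn and named, with Zfp488 at 1.26 and Il33 at -0.98 on the log2 scale the farthest to each side among them.

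The number of genes called depended on the test. The quasi-likelihood F test of edgeR and limma-voom each called 5 genes (0.0404%), in both cases Chdh, Zfp488, Rnf43, Prob1 and Serpinb1a, and DESeq2 called 37 (0.299%), all 21 among them. Of the 21 genes, 10 were called without each mouse in turn, among them Chdh, Zfp488, Rnf43, Prob1, Ppl, Serpinb1a, Car2, Il33 and Gjc3. Each of the other 11 lost its call without WT mouse 9083372, with FDRs of 0.0660 to 0.0982, and without some of the other mice. All 21 kept their direction in every one of the 30 alternatives in which they had a value. The count of called genes was 10 without WT mouse 9083372, 12 without SCA3 mouse 9083513, 13 without SCA3 mouse 9083515, 14 without WT mouse 7267059 or SCA3 mouse 7267054, 35 without SCA3 mouse 9082853 and 47 without WT mouse 9083371.

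In 10 of the 21 genes the WT and SCA3 libraries did not overlap in CPM, 5 with every SCA3 library above every WT library and 5 with every one below. Over all genes this held for 30 (0.242%). Of the remaining 20 genes, all without a call, several are given further below.

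Of the called genes, Zfp488 rose most. It encodes a zinc finger repressor that works with Olig2 in oligodendrocyte differentiation (chromosome 14, 33967070 to 33979034, minus strand, build GRCm38). WT libraries had 1.38, 1.89 and 2.74 CPM (lowest, median and highest of 7) and SCA3 libraries 3.24, 4.18 and 6.43 CPM (of 6). Every SCA3 library was therefore above every WT library, with SCA3 mouse 9083515 the highest, and the log2 fold change was 1.26 (SE 0.21, FDR 4.97e-06). Zfp488 was also the least abundant of the 21 genes, its lowest library holding 72 reads. Below it, Chdh and Rnf43 rose in every SCA3 library as well, and the promoters of these 3 genes are shown with that of Il33, the gene that fell most, because they are the 3 largest rises and the largest fall among the called genes with a promoter in the RefSeq table used. The sequences are the 250 bases before a transcript start annotated in RefSeq (GRCm38.p6), 5′ to 3′ on the strand of the gene, and capitals mark a match to any of 5 motifs searched on both strands, which are spelled out after the sequences.
Zfp488, chr14:33978765-33979014, minus strand: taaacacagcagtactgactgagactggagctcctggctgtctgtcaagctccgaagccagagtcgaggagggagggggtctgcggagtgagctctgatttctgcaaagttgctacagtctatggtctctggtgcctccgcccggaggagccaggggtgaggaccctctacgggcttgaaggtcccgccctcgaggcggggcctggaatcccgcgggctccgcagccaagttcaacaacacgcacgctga
Chdh, chr14:30008750-30008999, plus strand: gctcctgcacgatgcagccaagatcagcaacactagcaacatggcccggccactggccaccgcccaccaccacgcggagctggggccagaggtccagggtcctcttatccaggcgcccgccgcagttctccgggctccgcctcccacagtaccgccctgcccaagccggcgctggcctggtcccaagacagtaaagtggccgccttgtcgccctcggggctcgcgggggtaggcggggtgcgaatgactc
Rnf43, chr11:87662837-87663086, plus strand: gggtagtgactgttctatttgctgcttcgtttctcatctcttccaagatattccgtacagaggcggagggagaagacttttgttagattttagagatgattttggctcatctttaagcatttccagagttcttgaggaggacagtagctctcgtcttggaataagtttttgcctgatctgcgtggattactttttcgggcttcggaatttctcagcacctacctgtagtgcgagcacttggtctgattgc
Il33, chr19:29924863-29925112, plus strand: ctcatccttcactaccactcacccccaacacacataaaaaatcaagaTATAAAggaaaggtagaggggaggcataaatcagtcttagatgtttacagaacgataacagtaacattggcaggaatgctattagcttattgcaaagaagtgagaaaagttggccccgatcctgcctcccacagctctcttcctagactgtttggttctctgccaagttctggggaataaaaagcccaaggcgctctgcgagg
The only match in these 4 windows was TATAAA in Il33, 203 bases before the start. Outside the windows shown, a second annotated Il33 start had TATAAA 29 bases before it, and a second annotated Chdh start had the SOX core 42 bases before it. This TATA box motif was found in 12.3% of 32536 distinct promoters of the same length. The core bound by SOX transcription factors, searched as ACAAAG, was found in 16.5% of those promoters. An E-box of the form CAGCTG was found in 13.1% of them. The cAMP response element bound by CREB, searched as its full palindrome TGACGTCA, was found in 1.56% of the promoters. The core bound by the TCF and LEF factors of Wnt signalling, searched as ATCAAAG, was found in 3.21%, and its last 5 letters are also those of the SOX core. The Zfp488, Chdh, Rnf43 and Il33 windows had 61.6, 69.2, 44.4 and 45.2% G and C. The Zfp488 window lies wholly, and the Chdh window partly, inside the annotated span of its gene, before a transcript start within that span.

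Chdh and Psat1, enzymes of choline and serine metabolism, rose. Chdh, the mitochondrial choline dehydrogenase that starts the oxidation of choline to betaine (chromosome 14, 30008901 to 30040468), had 7.10, 9.22 and 10.01 CPM in WT and 12.3, 13.6 and 16.2 CPM in SCA3 libraries, with no overlap and a log2 fold change of 0.66 (SE 0.11, FDR 4.97e-06). Reads of Chdh cannot be told from those of Cacna1d where the genes overlap on opposite strands, over 530 bases. Psat1, the aminotransferase of serine synthesis (chromosome 19, 15905123 to 15925059), had 84.2, 98.5 and 110 CPM in WT and 107, 122 and 152 CPM in SCA3 libraries. Only WT mouse 9082857 reached into the SCA3 range, and the log2 fold change was 0.39 (SE 0.09, FDR 0.0221). The groups were otherwise apart.

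Rnf43, a membrane ubiquitin ligase that removes Wnt receptors from the cell surface (chromosome 11, 87663087 to 87735539), had 2.85, 3.25 and 3.62 CPM in WT and 4.17, 5.51 and 6.58 CPM in SCA3 libraries, without overlap (log2 fold change 0.74, SE 0.13, FDR 6.04e-05). Prob1 (chromosome 18, 35650347 to 35655221) had 4.98, 5.96 and 6.62 CPM against 7.64, 8.82 and 11.04 CPM, also without overlap (0.63, SE 0.12, FDR 0.00021). It lies wholly inside the annotated span of Spata24, so its counts are uncertain. Periplakin (Ppl), which links intermediate filaments to cell junctions (chromosome 16, 5086291 to 5132481), had 5.92, 9.31 and 10.6 CPM in WT and 10.7, 15.2 and 17.2 CPM in SCA3 libraries. The groups were apart, but SCA3 mouse 9082853 lay just above the highest WT library, and the log2 fold change was 0.73 (SE 0.15, FDR 0.00133).

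**Figure D3:**
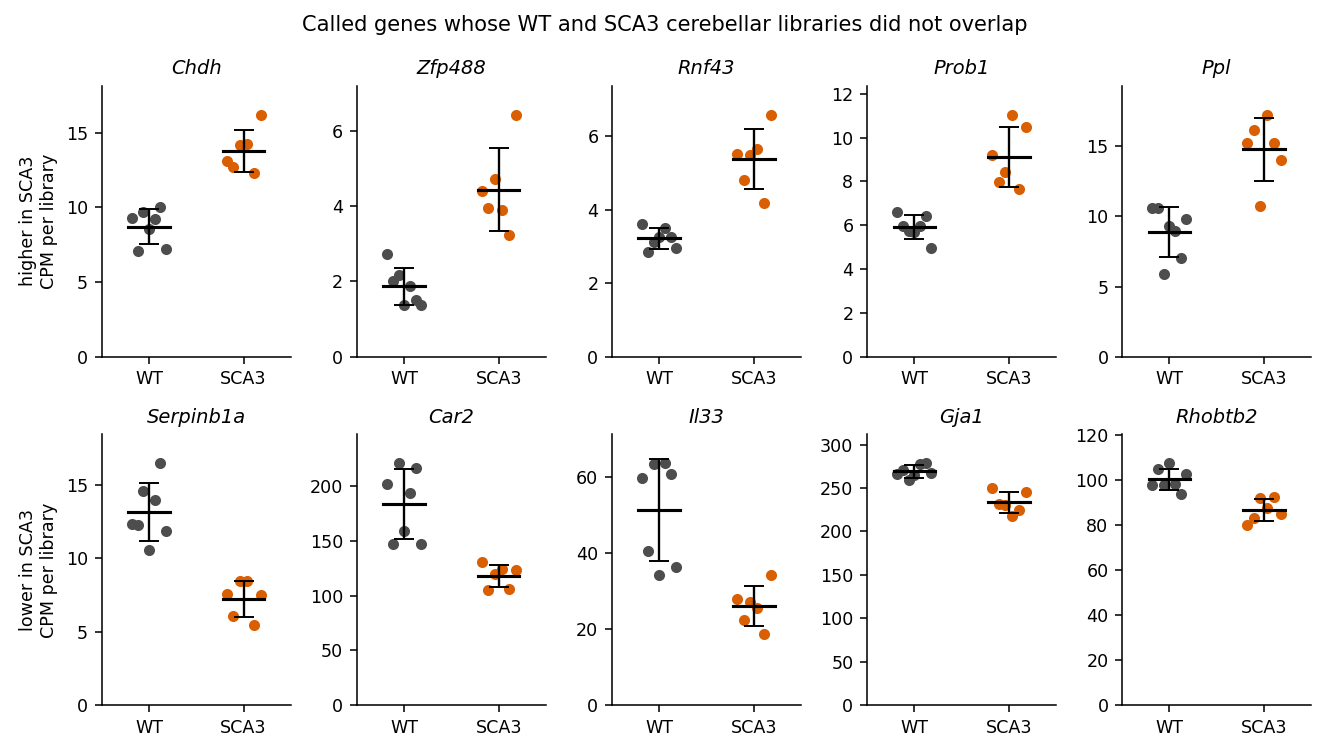
CPM in each cerebellar library (points) of the 10 called genes whose groups did not overlap, grey for 7 WT and orange for 6 SCA3 mice, with the mean (horizontal bar) and SD (vertical bar). Axes start at 0. In the upper row every SCA3 point is above every WT point, as for Zfp488 (3.24 to 6.43 against 1.38 to 2.74 CPM), and in the lower row every one is below, as for Serpinb1a (5.50 to 8.48 against 10.6 to 16.5 CPM).

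The other 6 genes that rose had overlapping groups. Cd82, a tetraspanin of the cell surface, had 14.97, 19.3 and 22.7 CPM in WT and 22.3, 27.6 and 30.8 CPM in SCA3 libraries (log2 fold change 0.48, SE 0.11, FDR 0.0174), and it overlaps the lincRNA Gm10804 on the other strand over 10132 bases. Prkcq, the theta isoform of protein kinase C, had 6.04, 8.79 and 10.8 CPM against 10.7, 13.6 and 17.3 CPM (0.66, SE 0.16, FDR 0.0215). In both genes 1 WT library, 9082857 for Cd82 and 9083373 for Prkcq, reached the 2 lowest SCA3 libraries, 7267056 and 9083514. Igfbp4, a carrier of insulin-like growth factors, had 9.08, 11.6 and 13.5 CPM in WT and 12.3, 16.3 and 17.7 CPM in SCA3 libraries (0.46, SE 0.11, FDR 0.0255). Ier5, an immediate early gene, had 18.8, 22.6 and 24.8 CPM against 23.2, 28.5 and 30.5 CPM (0.33, SE 0.08, FDR 0.0320). Sh3bgr had 17.7, 19.3 and 29.4 CPM in WT and 25.7, 30.1 and 34.6 CPM in SCA3 libraries (0.51, SE 0.12, FDR 0.0126). Its overlap came from a single WT mouse, 9083375 at 29.4 CPM, next to 22.4 CPM in the following one. Together with Psat1, these genes lost their call without some mice: Sh3bgr, Cd82, Prkcq, Psat1, Igfbp4 and Ier5 were called in 9, 8, 7, 6, 5 and 4 of the 13 fits that left out 1 mouse, with FDRs of up to 0.0795, 0.104, 0.128, 0.121, 0.159 and 0.201.

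Among the genes that fell, Serpinb1a had the smallest FDR of all genes. It encodes an inhibitor of serine proteases (chromosome 13, 32842092 to 32853206). WT libraries had 10.6, 12.4 and 16.5 CPM and SCA3 libraries 5.50, 7.52 and 8.48 CPM, without overlap, and the log2 fold change was -0.86 (SE 0.13, FDR 2.06e-06). Il33, a nuclear cytokine that oligodendrocytes and astrocytes of the brain express (chromosome 19, 29925113 to 29960718), had 34.4, 59.8 and 63.6 CPM in WT and 18.7, 26.4 and 34.2 CPM in SCA3 libraries. The groups only just stood apart, WT mouse 9083371 lying beside SCA3 mouse 9083515, and the log2 fold change was -0.98 (SE 0.18, FDR 9.99e-05). Car2, the cytosolic carbonic anhydrase abundant in oligodendrocytes (chromosome 3, 14886269 to 14900770), had 147, 194 and 221 CPM in WT and 105, 122 and 130 CPM in SCA3 libraries, again without overlap (-0.64, SE 0.11, FDR 1.32e-05). The WT libraries of Il33 and Car2 formed an upper and a lower set: the 4 WT mice with 200 to 288 CPM in the genes of the first component had 59.8 to 63.6 CPM of Il33, and the other 3 had 34.4 to 40.5 CPM. Whether what sets these libraries apart has a part in the differences was examined with covariates, given further below.

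Gjc3, a connexin of oligodendrocytes, had 104, 118 and 125 CPM in WT and 85.7, 96.7 and 105 CPM in SCA3 libraries (-0.28, SE 0.06, FDR 0.00272), where WT mouse 9083371 lay just below the highest SCA3 library. Gja1, the main connexin of astrocytes, had 259, 268 and 278 CPM in WT and 218, 231 and 250 CPM in SCA3 libraries. That is a small change (-0.20, SE 0.05, FDR 0.0216), yet no library of one group reached the other. Rhobtb2, an adaptor of a cullin ubiquitin ligase, behaved likewise, with 93.9, 98.1 and 107 CPM against 80.1, 86.2 and 92.3 CPM (-0.21, SE 0.05, FDR 0.0317).

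A further 3 genes that fell had overlapping groups. Erbb2ip, the scaffold protein Erbin, had 78.3, 109 and 117 CPM in WT and 67.2, 74.4 and 82.1 CPM in SCA3 libraries (-0.44, SE 0.10, FDR 0.00989). Slc7a11, the cystine-glutamate exchanger, had 36.6, 47.9 and 50.9 CPM against 32.8, 36.0 and 41.0 CPM (-0.34, SE 0.08, FDR 0.0221). Kcnk13, a tandem-pore potassium channel, had 5.08, 7.38 and 10.3 CPM against 3.24, 4.82 and 5.33 CPM (-0.73, SE 0.17, FDR 0.0221). The overlap was due to 1 WT mouse for Kcnk13 (9083371) and for Erbb2ip (9083371), and for Slc7a11 to WT mouse 9083375. Without single mice some calls were lost: Erbb2ip, Gja1, Kcnk13, Rhobtb2 and Slc7a11 were called in 10, 6, 6, 5 and 4 of 13 such fits, with FDRs of up to 0.0660, 0.115, 0.0965, 0.1698 and 0.121.

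The mouse gene Atxn3 was not called. It had 30.7, 35.1 and 39.5 CPM in WT and 35.3, 38.9 and 40.8 CPM in SCA3 libraries, which overlapped (log2 fold change 0.11, SE 0.07, FDR 1.00). The transgene is the human gene, whose transcripts were not analysed here, so these counts do not check the genotype labels.

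Since the first component held 57.3% of the variance with libraries of both genotypes on either side, the genotype effect was also fitted with a covariate for it. With 1 surrogate variable, 115 genes were called (0.93%), and with the mean log2 CPM of the 20 leading genes as covariate, a fit chosen after seeing the data, 99 were called (0.8%). The surrogate variable had a correlation of 0.998 with the first component, so the 2 fits have nearly the same covariate. They shared 97 genes, all 21 genes of the comparison without covariate among them, and 96 of the 97 had the direction they had there. With the mean log2 CPM of 20 mature oligodendrocyte markers as covariate, 85 genes were called (0.687%), again with all 21. Any of these 20 markers is tested there against a score that holds it, so its own call in that fit is not independent of the covariate. The fold changes of the main genes moved little. With the first-component covariate Zfp488 changed by 1.36 (FDR 1.47e-16), Chdh by 0.72, Rnf43 by 0.78 and Ppl by 0.67 on the log2 scale, and Il33 fell by 0.83 (FDR 3.05e-18), Car2 by 0.55 and Serpinb1a by 0.80. Il33 and Car2 were thus lower by somewhat less than without covariate, and Zfp488 was higher by somewhat more.

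With the choroid plexus score as covariate fewer genes passed: 7 were called (0.0566%), namely Chdh, Zfp488, Rnf43, Prob1, Psat1, Serpinb1a and Car2. Il33 was at -0.80 on the log2 scale but had an FDR of 0.165. The choroid plexus score differed between the groups, as given above, and its part in this result was not tested. Mouse numbers fall into 3 series. In the largest series alone, with 4 WT and 3 SCA3 mice, Zfp488 (1.56, FDR 0.00119), Chdh (0.71, FDR 0.0288), Ppl (0.82, FDR 0.000402), Serpinb1a (-0.88, FDR 0.0405) and Car2 (-0.60, FDR 0.0394) were called, while Il33 (-0.90, FDR 0.488) and Rnf43 (0.76, FDR 0.344) had fold changes of like size without a call. In the second series alone, with 2 WT and 2 SCA3 mice, Il33 (-1.01, FDR 0.00969) was called and Zfp488 had a log2 fold change of 0.80 (FDR 0.929). Most calls in these subsets were of other genes. The largest series called 13 genes, 5 of them among the 21, and the second series 40, with 2 among the 21. Without the 2 shallowest libraries, WT mice 7267055 and 7267059, Zfp488, Chdh, Rnf43, Prob1, Ppl, Serpinb1a, Car2 and Il33 were called.

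Without covariate, 0 markers of Purkinje cells, granule cells or inhibitory interneurons were called. Of 17 Purkinje cell markers, 4 were higher and 13 lower in SCA3, with a median log2 fold change of -0.06 against 0.00 for all genes, and 0 had an unadjusted p below 0.05 in edgeR's likelihood ratio test, the quasi-likelihood F test or DESeq2. Calb1, the calcium-binding protein of Purkinje cells, had 708, 854 and 1045 CPM in WT and 720, 869 and 990 CPM in SCA3 libraries, and Car8 1417, 1536 and 2023 CPM against 1322, 1619 and 1789 CPM. The groups lay over each other in both. The lowest member was Foxp2 (-0.30, SE 0.23). Over 15 alternatives, none of them with a covariate, the median of this list lay between -0.11 and 0.00. With 1 surrogate variable 0 of the 17 were higher and 17 lower (median -0.12), and 6 had an unadjusted p below 0.05, where 3.88% of all genes were lower at that p. With the first-component covariate 17 were again lower (median -0.10), and 5 of the 17 had an unadjusted p below 0.05, all lower (3.67% of all genes were lower at that p), while 0 had that p with the choroid plexus score as covariate (median -0.10), without the 2 shallowest libraries (median -0.03) and in the largest mouse number series alone (median -0.04). With the first-component covariate Rgs8, a regulator of G protein signalling in Purkinje cells, was called (-0.25, FDR 0.00932, against -0.18, SE 0.12, without covariate). Of 31 genes of Purkinje cell metabotropic and calcium signalling, such as Itpr1 and Plcb4, 12 were higher and 19 lower, with a median of -0.02, and 0 had an unadjusted p below 0.05. With 1 surrogate variable 23 of the 31 were lower (median -0.07), 7 of them at that p, and Atp2b2, a calcium pump of the plasma membrane, was called (-0.24, FDR 0.0131). With the first-component covariate 24 were lower, 4 at that p and 0 called, while without the 2 shallowest libraries 13 were lower and 0 had that p. Itpr1, the receptor that releases calcium from stores, had 3032, 3733 and 5526 CPM in WT and 3018, 3910 and 4820 CPM in SCA3 libraries.

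Of 22 ion channel genes of Purkinje cell firing, 0 were called and 2 had an unadjusted p below 0.05. Kcna6, a voltage-gated potassium channel, had 115.1, 122 and 140 CPM in WT and 106, 109 and 114.7 CPM in SCA3 libraries, which did not overlap (-0.16, SE 0.05, FDR 0.336), and Kcnc4 had a log2 fold change of 0.15 (FDR 1.00). Granule cell markers had a median of 0.06, with 13 of 18 higher (0.03 without WT mouse 7267055 and 0.15 without WT mouse 9083375) and 0 at an unadjusted p below 0.05. The markers of inhibitory interneurons had a median of -0.09, with 9 of 12 lower, and 2 were lower at an unadjusted p below 0.05, against 1.78% of all genes. Without WT mouse 9083371 the median was -0.05. With 1 surrogate variable 11 were lower and with the first-component covariate 12, in both fits with 5 at that p (3.88% and 3.67% of all genes), while with the choroid plexus score as covariate and in the largest mouse number series alone 11 were lower and 0 had that p. The 2 genes were Gad2, an enzyme of GABA synthesis, with 177, 202 and 230 CPM in WT and 157, 183 and 190 CPM in SCA3 libraries (-0.19, SE 0.07, FDR 0.661), and Grm2, a glutamate receptor of Golgi cells, with 17.2, 22.3 and 28.0 CPM against 17.0, 17.9 and 22.3 CPM (-0.28, SE 0.11, FDR 0.881). The 4 measured markers of unipolar brush cells and cerebellar nuclei (of 9) lay between -0.43 and 0.15 with 0 at that p. Neither the interneuron nor the granule cell markers had a called gene in the fit without covariate, while Grm2 was called lower with 1 surrogate variable (-0.32, FDR 0.0297) and with the first-component covariate (-0.32, FDR 0.0446).

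**Figure D4:**
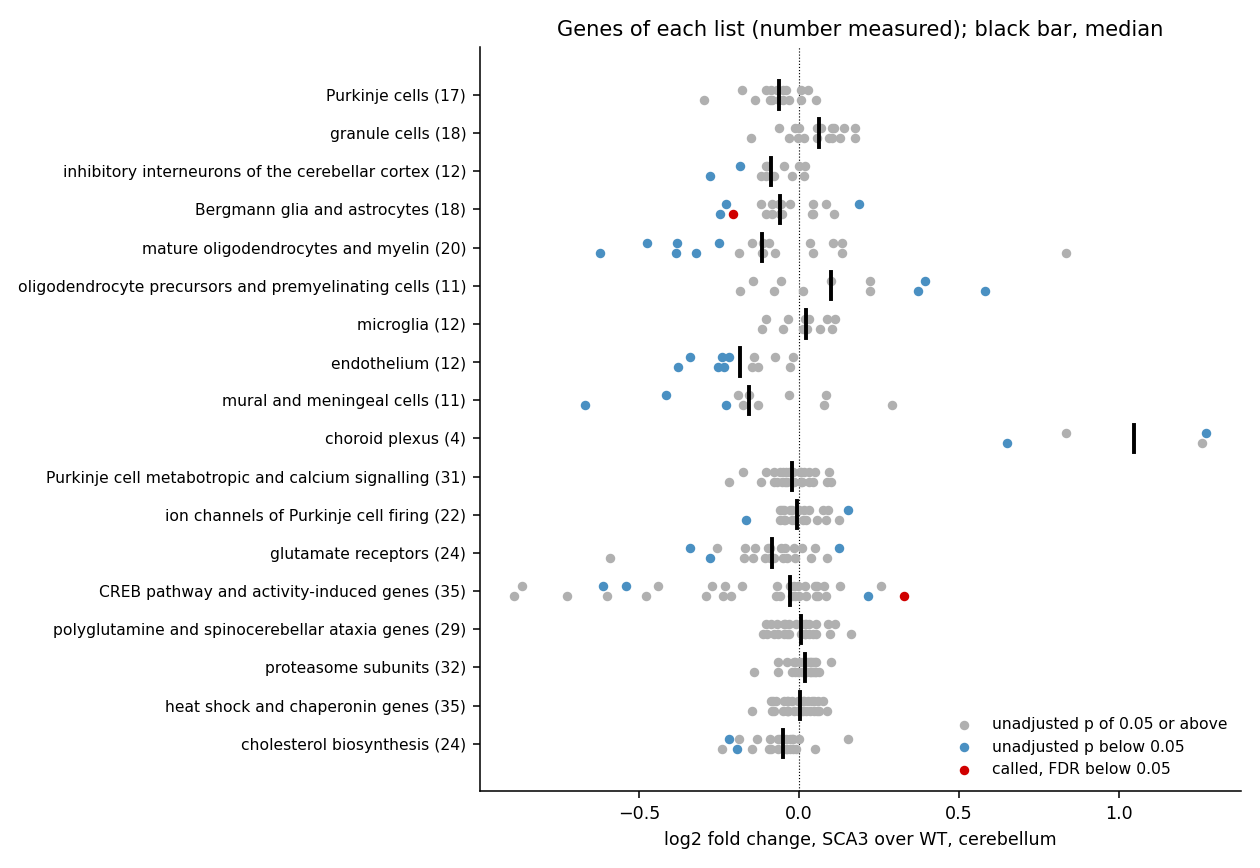
Each point is a gene of the list named at the left, placed by its log2 fold change of SCA3 over WT in cerebellum, with the number of measured genes in brackets and the median as a black bar. Red points were called (Gja1 and Ier5), 1 gene not reported here is not drawn, and blue points had an unadjusted p below 0.05. The endothelium list lies wholly below 0, the choroid plexus list wholly above, and the proteasome and heat shock lists close to 0.

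Genes of mature oligodendrocytes lay on both sides of 0, and those named in this paragraph were not called in the fit of all 13 libraries without covariate. Of 20 markers of mature oligodendrocytes and myelin, 14 were lower and 6 higher, with a median of -0.11 that lay between -0.18 without SCA3 mouse 9083515 and -0.046 without SCA3 mouse 9083514. At an unadjusted p below 0.05 there were 7 of the 20, all lower, where 1.78% of all genes were lower at that p. This count was 3 with the choroid plexus score as covariate (median -0.04) and 1 in the largest mouse number series alone (median -0.07). Aspa, which breaks down N-acetylaspartate, had 14.0, 24.9 and 28.4 CPM in WT and 9.38, 13.9 and 17.2 CPM in SCA3 libraries (-0.62, SE 0.19, FDR 0.199). Ugt8a, which makes the galactolipids of myelin, had 49.6, 72.6 and 82.2 CPM against 39.9, 46.2 and 61.0 CPM (-0.47, SE 0.14, FDR 0.147). In both genes the groups overlapped, and both were called without WT mouse 9083371, Aspa also without WT mouse 9083375. Mobp, Mal, Cldn11 and Fa2h had log2 fold changes between -0.39 and -0.25. By contrast Mbp, a main protein of myelin, had 1813, 2565 and 3005 CPM in WT and 1682, 2343 and 2704 CPM in SCA3 libraries (-0.11, SE 0.14), and Mog, Mag, Cnp, Opalin and Plekhb1 had values between 0.03 and 0.13. The highest member, Enpp2 (0.84, SE 0.45), is also one of the choroid plexus markers. The summed level of the list was 5195 to 7731 CPM in WT and 5154 to 6891 CPM in SCA3 libraries.

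Markers listed for oligodendrocyte precursors and premyelinating cells lay on both sides of 0, with more of them higher than lower. Of 11 precursor and premyelinating markers, 7 were higher and 4 lower (median 0.10, and 0.16 without SCA3 mouse 9083513), and Enpp6, Olig1 and Sox8 had an unadjusted p below 0.05, all 3 higher, where 1.81% of all genes were higher at that p. Enpp6, a marker of newly formed oligodendrocytes, had 4.97, 6.86 and 8.06 CPM in WT and 8.02, 9.60 and 13.7 CPM in SCA3 libraries, nearly without overlap (0.58, SE 0.15, FDR 0.0783). The transcription factors Sox8 and Olig1 had log2 fold changes of 0.37 (SE 0.11, FDR 0.141) and 0.39 (SE 0.15, FDR 0.718). Enpp6 and Sox8 were called without SCA3 mouse 9083514, and Enpp6 by DESeq2. Markers of dividing precursors were on the other side of 0, with Cspg4 at -0.18 and Pdgfra at -0.08. With the first-component covariate, Enpp6 (0.66), Olig1 (0.49), Sox8 (0.42) and Olig2 (0.38, FDR 0.0103) were called higher (3.4% of all genes were higher at an unadjusted p below 0.05 in that fit, as were 5 of the 11), and Aspa (-0.45, FDR 0.00527) and Ugt8a (-0.37, FDR 0.0103) lower. That fit called 0.8% of all genes. With the choroid plexus score, in the largest mouse number series alone and without the 2 shallowest libraries 0 of the 11 were called.

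Values of vascular genes were mostly negative. All 12 endothelial markers had log2 fold changes below 0, from -0.38 to -0.02 with a median of -0.18, and 6 had an unadjusted p below 0.05, where 1.78% of all genes were lower at that p, but 0 were called by edgeR's likelihood ratio test, the quasi-likelihood F test or DESeq2 with all 13 libraries. Cldn5, the tight junction protein of the blood-brain barrier, had 25.2, 31.5 and 37.2 CPM in WT and 21.5, 24.01 and 30.7 CPM in SCA3 libraries (-0.38, SE 0.11, FDR 0.138). Kdr, the main receptor of vascular endothelial growth factor, had 11.3, 15.01 and 16.9 CPM against 8.72, 11.7 and 13.2 CPM (-0.34, SE 0.12, FDR 0.468). The groups overlapped for both. Flt1, Tek, Slco1a4 and Cdh5 had values between -0.25 and -0.22, and the summed level of the list was 331 to 402 CPM in WT and 276 to 357 CPM in SCA3 libraries. Cldn5 was called with the first-component covariate (-0.38, FDR 0.0446) and 1 surrogate variable (-0.38). It was also called without WT mouse 7267055 (-0.43) and without SCA3 mouse 9082853 (-0.44). In those fits it was the only 1 of these 12 markers called. The fit without SCA3 mouse 9082853, which called 0.283% of all genes, also called Egfl7, Eng, Fgd5, Mmrn2 and Nos3, genes of endothelium outside this list. The median of the list lay between -0.22 and -0.12 over 15 alternatives without covariate, and it was -0.24 with the choroid plexus score as covariate and in the largest mouse number series alone. Of 11 measured mural and meningeal markers, 8 were lower (median -0.15), with Acta2 of smooth muscle at -0.67 (SE 0.24, FDR 0.528), Tagln at -0.42 and Pdgfrb of pericytes at -0.23. In the second mouse number series alone, with 2 WT and 2 SCA3 mice, Acta2, Tagln and Vtn were called lower. That fit called 0.323% of all genes.

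Bergmann glia and astrocyte markers had a median of -0.06, with 12 of 18 lower, and of -0.01 without WT mouse 9083371. Besides Gja1, the genes Glul (-0.25, SE 0.11) and Slc1a2 (-0.23, SE 0.10), which take up glutamate and turn it into glutamine, had an unadjusted p below 0.05, and S100b did so in the other direction (0.19, SE 0.08). Gfap, which rises in reactive astrocytes, had 150, 214 and 237 CPM in WT and 187, 221 and 262 CPM in SCA3 libraries (0.11, SE 0.10, FDR 1.00). Microglial markers had a median of 0.02, between -0.11 and 0.11, with 0 at an unadjusted p below 0.05. The 4 choroid plexus markers Ttr, Kl, Enpp2 and Clic6 had log2 fold changes of 0.65 to 1.27 (median 1.05), 2 were higher at an unadjusted p below 0.05 (Kl and Clic6), against 1.81% of all genes, and 0 were called by edgeR's likelihood ratio test. Without WT mouse 9083371 the median was 1.73 and Clic6 (1.00) and Enpp2 (1.37) were called, in a fit that called 0.38% of all genes. In the second mouse number series alone (0.323% of all genes), with 2 WT and 2 SCA3 mice, 4 of the 4 were called. The WT mice of that series, 7267055 and 7267059, had choroid plexus sums of only 243 and 152 CPM. Its SCA3 mice, 7267054 and 7267056, had 1167 and 1704 CPM. Kl had 2.58, 5.70 and 68.8 CPM in WT and 25.8, 42.2 and 70.1 CPM in SCA3 libraries, with overlapping groups. Of the 3 measured markers of brainstem neurons (of 14), Slc5a7 and Chat had log2 fold changes of -1.16 and -1.06 without a call, and Chat was at 0 in some libraries of both genotypes.

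Pathways linked to ataxin-3 had few differences in cerebellum in the fit without covariate. Of 29 polyglutamine and spinocerebellar ataxia genes, 22 ataxin-3 partners and Josephin relatives, 32 proteasome subunits and 35 heat shock and chaperonin genes, 0 were called, and the medians were 0.01, 0.01, 0.02 and 0.00. In all these lists together only Kat2b (0.15, SE 0.07, FDR 1.00), an acetyltransferase, had an unadjusted p below 0.05 without covariate. Hspa1a, the inducible heat shock protein, was at -0.15 and Hspa5, the chaperone of the endoplasmic reticulum, at 0.05. Of 24 cholesterol synthesis genes 21 were lower, with a median of -0.05, and Hmgcs1 (-0.22, SE 0.09) and Cyp51 (-0.19, SE 0.10) had an unadjusted p below 0.05. Of 24 glutamate receptor genes 19 were lower (median -0.08), among them Grm3 (-0.34, SE 0.13, FDR 0.697), while Grik2 was at 0.12. Of 35 measured genes of the CREB pathway and of activity-induced genes, Ier5 was called higher, and the median was -0.03, between -0.15 without SCA3 mouse 9083513 and -0.02 without SCA3 mouse 7267054. Fosl2 and Klf4 (-0.61 and -0.54) and Gadd45b (0.22) had an unadjusted p below 0.05. With the choroid plexus score as covariate 13 of the 35 were lower at that p, against 1.83% of all genes (median -0.11), and without the 2 shallowest libraries 11 were, against 1.89% of all genes (median -0.08). With 1 surrogate variable 7 were, against 3.88% of all genes (median -0.05). In the largest mouse number series alone the median was 0.0047 and Klf4 was called lower. The lowest member, Fos, had 5.80, 38.8 and 65.6 CPM in WT and 11.7, 13.01 and 49.5 CPM in SCA3 libraries (-0.89, SE 0.48), so libraries of the same genotype differed by more than the groups. Medians of the 6 adrenergic, 16 GABA and glycine receptor genes were 0.00 and -0.04, with 0 called. With 1 surrogate variable, 1 polyglutamine or spinocerebellar ataxia gene was higher and 4 were lower at an unadjusted p below 0.05. Of all genes, 436 were higher and 480 lower at that p. Of the ataxin-3 partners 3 were higher and 1 lower at that p, and 28 of 32 proteasome subunits had positive values. Of the glutamate receptors 6 were lower at that p, and Grm2 was called. In the largest mouse number series alone only 1 gene of these lists, a glutamate receptor, had that p.

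Of 25 genes that the study listed for the 4 regions combined, 6 were called higher and 5 lower in cerebellum, and at an unadjusted p below 0.05 there were 11 in each direction. Of all genes, 0.0889% were called higher and 0.0808% lower, and 1.81% and 1.78% had that p. This list was chosen on the same mice, cerebellar libraries included, so it is not independent evidence. Of 11 myelination genes the study named, also from these mice, 0 were called, and 2 were higher and 5 lower at an unadjusted p below 0.05. With 1 surrogate variable, where 0.93% of all genes were called, 5 of the 11 were, Olig1 and Olig2 higher and Aspa, Klk6 and Tspan2 lower, and with the first-component covariate (0.8% of all genes) the first 4 of these. In the largest mouse number series alone 0 were called, and 1 was higher and 1 lower at that p. Its members include Klk6 (-0.58, SE 0.17, FDR 0.138) and Cdkn1c (0.85, SE 0.28, FDR 0.336).

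To ask whether cerebellum responded differently from the other regions, the genotype effect in cerebellum was tested against the mean effect in brainstem, cortex and striatum in a fit of all 53 libraries. A single gene, Tmc3 (0.00808% of all genes), passed, and 188 genes had an unadjusted p below 0.05 (198 by the quasi-likelihood F test, which also called Tmc3 alone). Tmc3, a member of the transmembrane channel-like family (chromosome 7, 83584904 to 83626852), had 5.05, 7.79 and 8.13 CPM in WT and 8.54, 9.12 and 10.9 CPM in SCA3 cerebellum. Every SCA3 library was above every WT library, but the log2 fold change of 0.42 (SE 0.13) was not called in the fit without covariate (FDR 0.19). In 2 of 30 alternatives Tmc3 was called higher in cerebellum, with 1 surrogate variable (0.42, FDR 0.0464) and with the mouse number series as covariate. With each region fitted alone the log2 fold changes were 1.47 (SE 0.12) in striatum, 1.17 (SE 0.18) in cortex and 1.16 (SE 0.13) in brainstem. The difference of cerebellum from their mean was -0.85 (FDR 0.000169), with FDRs from 3.67e-06 to 0.0131 over 18 alternatives, the first with the mouse as a block. Tmc3 overlaps the antisense gene Gm16638 over 29805 bases, and reads from the pair cannot be told apart without strand. The WT mean of Tmc3 was 6.78 CPM in cerebellum (scaled over all 53 libraries) and 6.34, 3.77 and 5.41 CPM in brainstem, cortex and striatum.

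For the 21 genes called in cerebellum no difference from the other regions was called. The 4 regions came largely from the same mice, so the values that follow are set side by side and not counted as agreement. Zfp488 had log2 fold changes of 1.78 in brainstem, 1.45 in cortex and 1.29 in striatum beside 1.26 in cerebellum. Car2 was at -1.27, -0.71 and -1.26 beside -0.64, and its difference of 0.44 between cerebellum and the mean of the others had an unadjusted p of 0.00356 (FDR 1.00). Ppl, at 2.12, 0.62 and 0.90 beside 0.73, was the gene with the widest spread among those that rose. Gja1 had -0.58 in brainstem beside -0.20 in cerebellum. Rhobtb2 and Sh3bgr had values on the other side of 0 in some of the other regions. Rhobtb2 was at -0.21 in cerebellum and at 0.03, -0.09 and 0.23 in brainstem, cortex and striatum, and its difference of -0.28 had an unadjusted p of 0.0342 (FDR 1.00). Sh3bgr was at 0.51 in cerebellum and at -0.17, 0.02 and -0.93 elsewhere, with a WT level of 20.2 CPM in cerebellum, 23.0 CPM in brainstem and under 2 CPM in cortex and striatum, and its difference of 0.86 had an unadjusted p of 0.0507 (FDR 1.00).

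**Figure D5:**
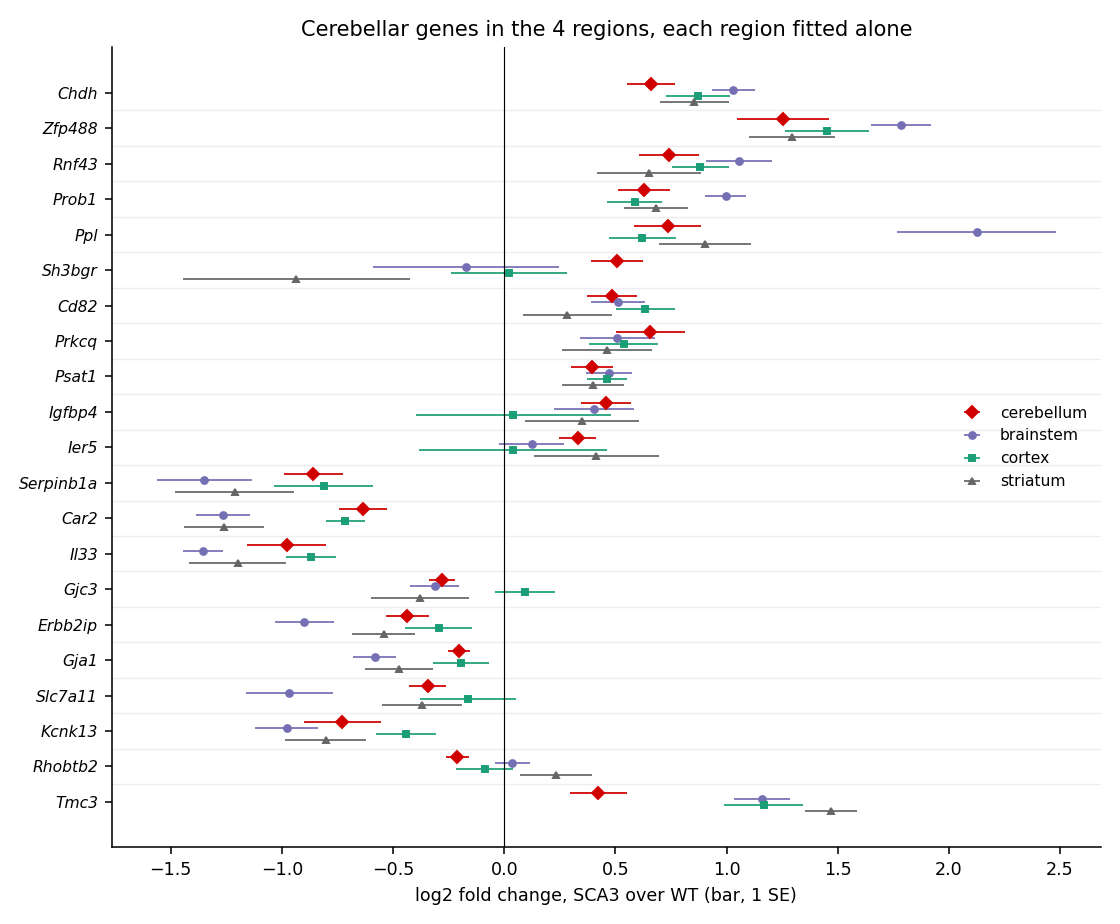
Log2 fold change of SCA3 over WT (horizontal axis, bars 1 SE) of 20 of the 21 genes called in cerebellum and of Tmc3, with each region fitted alone. Red diamonds are cerebellum, circles brainstem, squares cortex and triangles striatum. Zfp488 is right of 1.2 in all 4 regions, Tmc3 is at 0.42 in cerebellum and above 1.1 elsewhere, and Sh3bgr, Rhobtb2 and Gjc3 have values on both sides of 0.

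Other genes with a small p for the regional difference did not pass adjustment. Enho, which encodes the peptide adropin, was at 0.04 (SE 0.08) in cerebellum and at -0.35, -0.34 and -0.71 in brainstem, cortex and striatum (difference 0.50, FDR 0.383). In cerebellum its libraries had 46.0 to 66.5 CPM in WT and 51.9 to 64.3 CPM in SCA3. Polr2a, the large subunit of RNA polymerase II, was at 0.16 in cerebellum beside 0.74, 0.35 and 0.47 (difference -0.37), Hist1h2be at 0.19 beside 0.77, 0.66 and 0.77 (difference -0.56), and Col2a1 at -0.25 beside 0.42, 0.17 and 0.17 (difference -0.51), each with an FDR of 1.00. None of these 4 genes was called in cerebellum. Fitted alone, brainstem gave 392 called genes (3.17%), cortex 35 (0.283%) and striatum 88 (0.711%) beside the 21 of cerebellum (0.17%).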

How the data were processed

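RNA was extracted from dissected, frozen tissue and sequenced from poly-A selected, non-stranded libraries. The authors trimmed reads (cutadapt 1.10), aligned them (STAR 2.3.0e), counted uniquely aligned reads per RefSeq gene of GRCm38 without strand (HTSeq 0.6.1) and deposited one table of raw counts of 12372 genes in 53 libraries, kept where the average exceeded 4 CPM. Overlapping or near-identical genes therefore have uncertain counts. For the present results the 13 cerebellar libraries were scaled by TMM and tested with edgeR's likelihood ratio test (R 4.3.3, edgeR 4.0.16), the test of the study's methods, with Benjamini-Hochberg adjusted p (FDR) and a threshold of 0.05. The model was not that of the study, whose methods give each group its own coefficient and compare genotypes by contrast. The alternative nearest to it, the fit of all 53 libraries, called 8 genes in cerebellum. CPM values use TMM library sizes, and the SE is that of the log2 fold change. The difference from the other regions was a contrast over all 53 libraries in 8 groups. Alternatives used the quasi-likelihood F test, limma-voom (limma 3.58.1), DESeq2 1.42.0, other scaling and filters, covariates (surrogate variables by sva 3.50.0), the largest series of mouse numbers, and each mouse left out. The first-component covariate, the second series, the fit without the shallowest libraries and left-out mice for sample measures were added after seeing the data. Scripts were tested on simulated data. Replicates are separate mice, numbered in the labels. The same mice gave several regions, and the mean correlation of a mouse's deviations between cerebellum and brainstem, cortex and striatum was 0.104, 0.0904 and 0.142, so the mouse as a block bears on the regional contrast. Named genes were Atxn3, up to 15 called genes per direction by FDR, 8 genes the study singled out, the 5 smallest FDRs of the regional contrast, and called, extreme or defining members of each list. Some genes, 1 called gene among them, are not reported here. The members and lists were chosen with earlier results of these data known. Positions are from GRCm38, on which 99.8% of genes were placed. Blood markers were in the list but none of 6 was in the table used here.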

Additional observations from a re-analysis of the deposited data

Results flagged for a closer look

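In 62 groups of values checked for a sample far from the others, 4 had one, and chance alone flags about 1 in 20 such groups. Sh3bgr in WT mouse 9083375 had 29.4 CPM, where the next WT library had 22.4 CPM. Hist1h2be in SCA3 mouse 7267056 had 6.51 CPM, with 5.74 CPM in the next SCA3 library. Ages of 77 weeks in WT mouse 9082857 and SCA3 mouse 9082853 stood apart from 75 weeks or less in the others of their group. The genotype effect on Tmc3 differed between cerebellum and the mean of the other regions by -0.846 on the log2 scale (edgeR's likelihood ratio test of the contrast, FDR 0.000169).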

How the results depend on the processing

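The 21 called genes kept their direction in each of the 30 alternatives in which they had a value. The total count moved to 5 with the quasi-likelihood F test and with limma-voom (4 higher and 1 lower in both), 37 with DESeq2 (19 and 18), 8 with all 53 libraries in the fit (5 and 3), 39 with the mouse number series as covariate (23 and 16), 115 with 1 surrogate variable (66 and 49), 7 with the choroid plexus score (5 and 2) and 85 with the oligodendrocyte score (59 and 26). It was 13 in the largest series alone (3 lower), and 17 genes were higher with RIN as covariate. Alternatives chosen after seeing the data gave 99 with the first-component score (61 and 38), 40 in the second series alone (27 higher) and 13 without the 2 shallowest libraries (4 lower). Leaving out each mouse gave 10 to 47 genes in all, 5 to 32 higher and 5 to 23 lower. The cause was not tested. The regional difference gave 1 to 2 genes with a mouse left out, Slc37a2 being added without WT mouse 9083371 and Gmppa without WT mouse 9083375. With the mouse number as replicate block it gave 1, Tmc3 at -0.87, and the block changed no call. Differences between genotypes with a mouse left out were 5.88 to 11.7 M counts, -0.117 to 0 in RIN, -0.886 to -0.167 weeks and -13.9 to -11.2 g. Enho in cerebellum turned sign, with -0.016 under the choroid plexus score, -0.0017 in the largest series, -0.027 without the 2 shallowest libraries and -0.0026 to 0.0886 with a mouse left out. Of 26 list medians, 17 kept their sign over 15 alternatives that had no covariate, and 13 of these 17 kept it in 6 further fits with a covariate or fewer libraries, a list's own score left out. The other 4 turned, namely granule cells (-0.0053 with the first-component and -0.0041 with the oligodendrocyte score), brainstem neurons (0.77 with the oligodendrocyte score), GABA and glycine receptors (0.034 with the choroid plexus score and 0.0037 in the largest series) and the CREB list (0.0047 in the largest series). Libraries held 34.6 to 69.4 M counts, and Zfp488, the least abundant called gene, had 72 reads in its lowest library.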

Other observations

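Several genes lay just outside the threshold and are given as values, chosen after they were seen. Smoc1, a secreted calcium-binding protein, had 14.3, 17.1 and 17.5 CPM (lowest, median and highest) in WT and 16.8, 23.2 and 28.1 CPM in SCA3 cerebellum (log2 fold change 0.46, FDR 0.0520 by edgeR's likelihood ratio test). Fgfr2, a fibroblast growth factor receptor, had 78.0, 87.6 and 93.5 CPM against 67.5, 74.5 and 79.0 CPM (-0.24, FDR 0.0543). Eya4, a transcriptional coactivator, had 0.976, 1.42 and 2.06 CPM against 1.67, 2.70 and 3.57 CPM (0.84, FDR 0.0543). The groups overlapped in all 3.

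In 2 further genes without a call the groups did not overlap. Synpr, which encodes the synaptic vesicle protein synaptoporin, had 64.1 to 94.8 CPM in WT and 99.4 to 120 CPM in SCA3 libraries (0.32, FDR 0.0943 by edgeR's likelihood ratio test). Opn3, an opsin found outside the eye, had 13.4 to 19.6 CPM in WT and 9.94 to 13.1 CPM in SCA3 libraries (-0.40, FDR 0.0783).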
